A study of Mus musculus with 12 samples.

Results

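The genes described here encode 7 transcription factors that set the segment identity and absorptive programme of the intestinal epithelium: the GATA factors Gata4, Gata5 and Gata6, the onecut factor Onecut2, and the homeobox factors Pdx1, Cdx1 and Cdx2. They were chosen by name, with earlier results of these data known. Each was read from the only probe set that named it alone, so that 7 of the 19937 genes with such a probe set are covered. Genes whose mean level lay under the 40th percentile (an intensity of 85.6) were left out as dim. That left 6 of the 7 among the 11962 genes tested, and Pdx1 lay under the limit.

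The expression data came from Affymetrix whole-transcript arrays of total RNA from the small intestine of wildtype male FVB mice with a labelled age of 8 weeks. One group of 6 arrays is labelled Control HF Diet, a high-fat feed. The other 6 are labelled Low P/S Diet, a feed whose ratio of polyunsaturated to saturated fatty acids is low, and both feeds were given for 8 weeks. All animals were thus on a diet named for its fat content or fat type, without a low-fat group, and arrays within a diet are stated to be biological replicates. The labels do not say which part of the small intestine was taken, so the levels of segment-dependent genes describe whatever length was sampled.

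GATA factors are zinc finger proteins that bind the core letters GATA. In the mouse, Gata4 is present in duodenum and jejunum and falls away in the distal ileum, where it would otherwise hold back the ileal programme of bile acid uptake, and Gata6 is found along the whole length, in crypts and in villi. Pdx1 marks the duodenum, Onecut2 is another factor of the proximal small intestine, and Cdx1 and Cdx2, the vertebrate relatives of the fly gene caudal, keep the epithelium intestinal rather than gastric and act at many brush border genes. In whole tissue, fewer cells of a type and less RNA per cell cannot be told apart.

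The bases before the start of transcription are shown for 4 genes, with the letters GATAA (bound by GATA factors) and TTTAT (bound by Cdx factors) in capitals on either strand. Cdx2 is shown as the factor gene on which the results turn, Lct as the lactase gene, a classical promoter of both GATA and Cdx factors, Npc1l1 as a proximal absorptive gene with lower intensity with the low P/S feed, and Cldn2 as a gene linked to Cdx2 with higher intensity. The sequences are those of RefSeq on GRCm38.p6, each 250 bases read 5′ to 3′ up to the base before the start.
Cdx2, chr5:147307250-147307499, minus strand: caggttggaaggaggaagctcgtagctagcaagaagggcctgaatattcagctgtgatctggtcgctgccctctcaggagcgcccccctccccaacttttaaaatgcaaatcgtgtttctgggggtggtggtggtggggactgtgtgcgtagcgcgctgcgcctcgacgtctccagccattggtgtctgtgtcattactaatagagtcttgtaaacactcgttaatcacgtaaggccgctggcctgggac
Lct, chr1:128328319-128328568, minus strand: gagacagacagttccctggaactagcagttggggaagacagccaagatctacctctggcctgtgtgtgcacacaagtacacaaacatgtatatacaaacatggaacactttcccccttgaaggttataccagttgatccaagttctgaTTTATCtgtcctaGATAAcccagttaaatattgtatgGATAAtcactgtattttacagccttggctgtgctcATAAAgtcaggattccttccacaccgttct
Npc1l1, chr11:6230246-6230495, minus strand: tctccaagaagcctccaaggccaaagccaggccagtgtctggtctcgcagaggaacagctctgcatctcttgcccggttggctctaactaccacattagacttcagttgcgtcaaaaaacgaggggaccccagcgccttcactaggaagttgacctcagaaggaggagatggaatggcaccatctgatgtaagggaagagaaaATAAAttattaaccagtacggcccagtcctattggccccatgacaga
Cldn2, chrX:139800558-139800807, plus strand: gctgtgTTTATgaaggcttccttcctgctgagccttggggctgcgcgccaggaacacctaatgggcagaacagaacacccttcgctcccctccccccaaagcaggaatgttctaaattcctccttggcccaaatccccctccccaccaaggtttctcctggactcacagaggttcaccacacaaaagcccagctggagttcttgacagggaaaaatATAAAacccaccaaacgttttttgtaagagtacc

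In the Lct window GATAA stood at 3 places, beginning at bases -101 (on the opposite strand), -89 and -65 counted back from the start. TTTAT stood there at -102, overlapping the first GATAA, and on the opposite strand at -30. The Cdx2 window held neither motif. Over all 32851 promoter windows of this length, 22.6% held GATAA and 37.3% TTTAT on either strand. These matches describe letters and not binding. The search did not tell factor sites from other promoter elements with the same letters. This holds also for TTTAT close to the start, beginning at -30 in Lct and -34 in Cldn2.

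Of the tested factor genes, Cdx2 was the member whose difference between the diets passed. Whether the others were equal on both diets was not tested. A positive difference means a higher log2 intensity on low P/S arrays, errors are standard errors from limma, and adjusted p-values are Benjamini-Hochberg values over all genes tested. Cdx2 was 1.12-fold higher with the low P/S feed, 5 tested members had differences between -0.10 and 0.063 that did not pass, and no member passed as lower in limma (0 also at an unadjusted p under 0.05). Of all genes tested, 25.7% passed, 17.8% as higher and 7.87% as lower (2132 and 942 genes, or 1853 and 1596 after quantile normalization), so that 1 of 6 members is no larger a share than among genes in general. The median absolute difference of the 6 tested members was 0.052, against 0.099 over all genes tested. The median of the signed differences was 0.019 for the members and 0.022 for all genes. For 5 of these 6 members the spread between arrays of a diet was below the median of all tested genes.

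**Figure D1:**
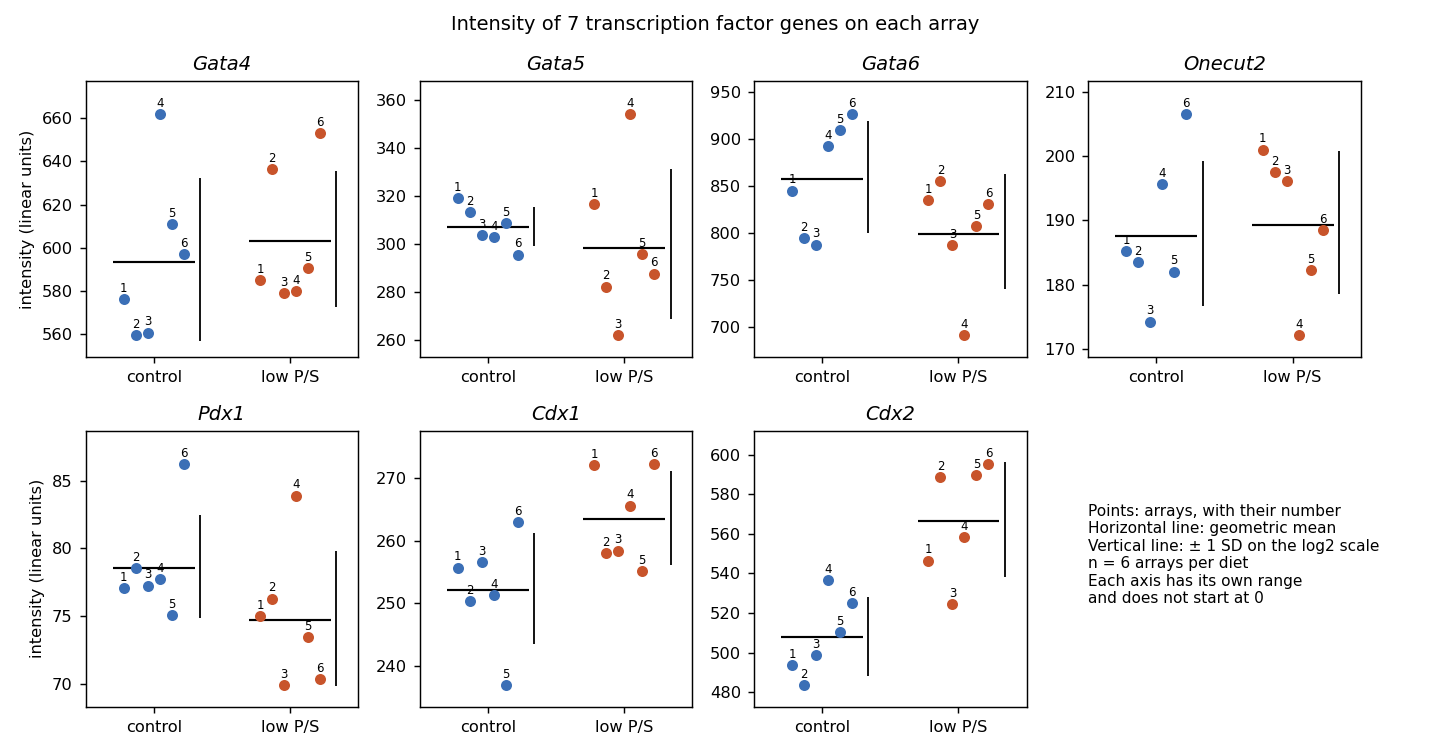
Intensity (linear units, each axis with its own range) of the 7 factor genes on the 6 control arrays and 6 low P/S arrays, with array numbers, geometric means and 1 SD on the log2 scale. The groups overlap for every gene, and for Cdx2 5 of 6 low P/S arrays lie above the highest control array.

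Among the GATA factors, Gata4 (probe set 10420747), the regulator of jejunal identity, read 559, 587 and 662 (lowest, median and highest array) with the control feed and 579, 588 and 653 on the low P/S diet. The low P/S arrays lay within the control range. The difference was 0.024 ± 0.053 with a 95% interval of -0.089 to 0.14 (limma adjusted p = 0.775), so the interval reaches from a level 0.940 times to 1.10 times that of the control group. Quantile normalization of the arrays turned the sign to -0.027.

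Gata6 (probe set 10453857), the GATA factor of crypts and villi along the whole gut, read 787, 868 and 926 with the control feed and 691, 818 and 855 on the low P/S diet. All 6 low P/S arrays lay below the control median, and 2 lay below the lowest control array. The difference was -0.10 ± 0.061 (95% interval -0.23 to 0.027, limma adjusted p = 0.230). It remained short of the threshold under quantile normalization, at -0.18 (adjusted p = 0.0690), and was -0.060 without low P/S array 4 (adjusted p = 0.477).

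Gata5 (probe set 10490491), a GATA factor of differentiated epithelium, read 296, 306 and 319 with the control feed and 262, 292 and 354 on the low P/S diet. The low P/S arrays spread on both sides of the control range, 3 below it and 1 above it, with an SD of 0.15 against 0.039 among control arrays on the log2 scale. The difference was -0.042 ± 0.062 (95% interval -0.17 to 0.090, limma adjusted p = 0.656). It was -0.0044 without low P/S array 3, -0.091 without low P/S array 4 and -0.11 under quantile normalization, and passed in none of these.

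Onecut2 (probe set 10456248), a cut-homeodomain factor, read 174, 184 and 207 with the control feed and 172, 192 and 201 on the low P/S diet. The groups covered nearly the same range. The difference was 0.013 ± 0.054 (95% interval -0.10 to 0.13, limma adjusted p = 0.876), with a sign that turned under quantile normalization (-0.037) and without control array 3 or low P/S array 1.

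Pdx1 (probe set 10527565), the duodenal and pancreatic homeobox factor, lay near the floor of the intensities, at the 34.1th percentile of mean level over all genes. It read 75.1, 77.5 and 86.2 with the control feed and 69.9, 74.2 and 83.9 with the low P/S feed, and 4 of 6 low P/S arrays lay below the lowest control array. In a fit with no dim filter, in which 15.1% of 19937 genes passed, the difference was -0.073 ± 0.051 (95% interval -0.18 to 0.034, limma adjusted p = 0.366). At such a level a change in the transcript could be hidden under background signal, so the interval describes the probe set's signal. The lowest value in the whole table was 17.7.

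Cdx1 (probe set 10459153), the Cdx factor that is strongest in crypts, read 237, 253 and 263 with the control feed and 255, 262 and 272 on the low P/S diet. All 6 low P/S arrays lay above the control median and 3 above the highest control array. The difference was 0.063 ± 0.043 (95% interval -0.027 to 0.15, limma adjusted p = 0.291). Its spread between arrays was among the smallest of all tested genes (within-diet SD 0.046, the 1.17th percentile). The exact two-sided permutation test over the 924 arrangements of the arrays, which uses this gene's spread alone, gave an unadjusted p of 0.0346. For Gata4, Gata5, Gata6, Onecut2 and Pdx1 this exact permutation test gave unadjusted p-values from 0.123 to 0.781. No adjustment over the members was made for this test. Under quantile normalization the Cdx1 difference was 0.00061, so its size depended on the scaling of the arrays.

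Cdx2 (probe set 10535771), which keeps the epithelium intestinal and is present throughout crypt and villus, read 484, 505 and 537 with the control feed and 525, 573 and 595 on the low P/S diet. In the low P/S group 5 of 6 arrays lay above the highest control array, and array 3 lay within the control range. The difference was 0.16 ± 0.048 (95% interval 0.057 to 0.26), or 1.12-fold (limma adjusted p = 0.0228). The exact permutation test gave an unadjusted p of 0.00649. In size, 68.4% of tested genes had a smaller absolute difference. The call ended under quantile normalization (0.097, adjusted p = 0.191), without low P/S array 5 (0.15, adjusted p = 0.0517) and without control arrays 1 and 2 together (0.13, adjusted p = 0.0751), all with a positive difference.

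**Figure D2:**
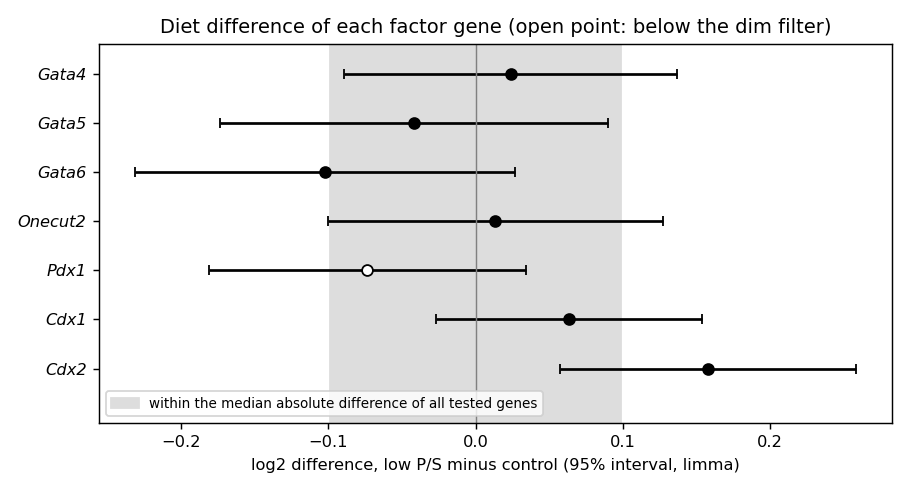
Log2 difference (low P/S minus control) of each factor gene with its 95% interval from limma (n = 6 arrays per diet), beside a band of the median absolute difference of all tested genes, 0.099. The interval of Cdx2 lies above 0, and those of the other 6 genes include 0.

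**Figure D3:**
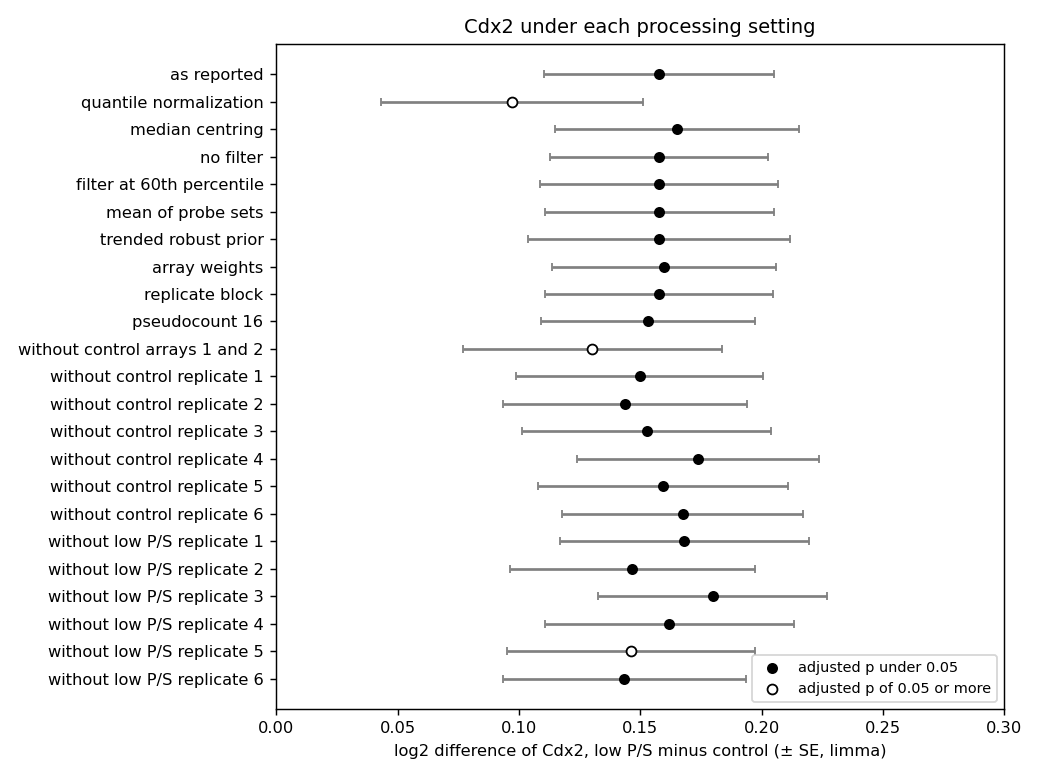
Log2 difference of Cdx2 (± standard error from limma) as reported and under each of 22 other settings. All values are positive, between 0.097 and 0.18, and 3 settings (open points) miss the threshold.

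Whether 2 factor genes changed unequally was tested on their log2 ratio within each array, which does not depend on the overall scale of an array. Of 15 pairs among the 6 tested members, 7 had an exact permutation p under 0.05 and 2 passed after adjustment over the 15 pairs. Both set a GATA factor against Cdx2, the member whose own difference passed. How often the ratios of other genes to Cdx2 separated the diets was not examined. These pairs therefore do not show a contrast particular to GATA factors. Gata4 over Cdx2 was lower on the low P/S diet by 0.13 (exact 95% interval -0.20 to -0.069, exact permutation p = 0.00216, adjusted p = 0.0162). All 6 low P/S arrays lay below all 6 control arrays in this ratio, with group means of 0.091 ± 0.053 and 0.22 ± 0.050 (SD, n = 6). Gata6 over Cdx2 was lower by 0.26 (exact 95% interval -0.38 to -0.15, exact permutation p = 0.00216, adjusted p = 0.0162), again with no overlap. This p is the smallest that 924 arrangements can give. Only the change of such a ratio can be read, since levels of different probe sets are not on 1 scale.

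The remaining pairs did not pass. Gata6 over Onecut2 was lower by 0.12 (exact permutation p = 0.0108, adjusted p = 0.0541) and Gata4 over Gata6 higher by 0.13 (exact permutation p = 0.0260, adjusted p = 0.0779). Cdx1 over Cdx2, the pair of Cdx factors, differed by -0.095 (exact 95% interval -0.20 to 0.013, exact permutation p = 0.0671, adjusted p = 0.126). Cdx2 and Cdx1 are therefore not shown to differ in their response. Gata5 over Cdx2 (-0.20) and Onecut2 over Cdx2 (-0.14) each had an adjusted p of 0.0835. The Gata4 and Gata6 ratios to Cdx2 kept their call under quantile normalization, at -0.12 and -0.27, and without any 1 array. A sign-flip test that takes same-numbered arrays as a replicate block ended both calls (adjusted exact p = 0.156). The smallest exact p of that test is 0.0312, which adjustment over 15 pairs leaves above the threshold unless most pairs reach it.

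**Figure D4:**
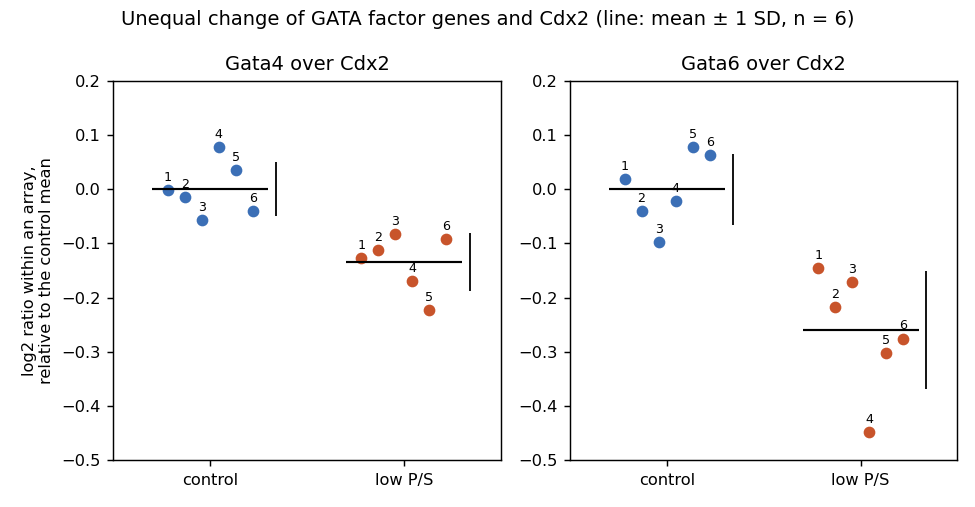
Log2 ratio of Gata4 (left) and Gata6 (right) to Cdx2 within each array, relative to the control mean, with array numbers, means and 1 SD (n = 6). All low P/S arrays lie below all control arrays in both panels.

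Across arrays of a diet the factor genes did not move as 1 block. As a description over 12 arrays, deviations from the diet means had a correlation of 0.79 between Gata4 and Cdx2, 0.77 between Gata6 and Onecut2 and -0.54 between Gata5 and Gata6. These values share the arrays and their scaling. Low P/S array 4 stood at the end of its diet for 4 members, with the lowest Gata6 (691) and Onecut2 (172) and the highest Gata5 (354) and Pdx1 (83.9). The same array held the lowest values of Lct (1806), Cubn (547), Ada (208) and Npc1l1 (1270) and the highest of Slc10a2 (227), Cldn2 (294) and Sct (295). The part of those genes' shared deviation in the factor genes was not tested.

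The genes whose log2 values followed each factor most closely over the 12 arrays are given by their correlation, as a description. For each factor they are the 3 highest of all tested genes with a name, so high values follow in part from that choice. For Cdx2 they were Mvk, the mevalonate kinase gene (r = 0.93), Ice1 (0.91) and Clpp, a mitochondrial protease gene (0.91), all higher on the low P/S diet by 0.26 to 0.31. Deviations from the diet means gave 0.80, 0.73 and 0.73, and quantile normalization 0.71, 0.66 and 0.81. For Gata6 they were Fmo5, a flavin monooxygenase gene (0.93), Wbp2 (0.92) and the histone variant gene H2az2 (0.92). Azin1, an antizyme inhibitor gene, followed Gata5 (0.90), as did Wsb1 and Hcfc2 (both 0.85, Hcfc2 at 0.75 after quantile normalization). Gata4 had Cfap298, Banp and Mical3 (0.81 to 0.84), of which Cfap298 was at 0.45 after quantile normalization. Onecut2 had Zfp651, Ormdl3 and Fbxl7 (0.78 to 0.85). The genes nearest to Cdx1 were Tspyl3, Tmtc3 and Fat4 (0.84 to 0.86), and all 3 values depended on scaling, at 0.42, 0.65 and -0.057 after quantile normalization.

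The labelled tissue was checked against markers. All 8 markers of the intestinal epithelium were bright, with mean intensities from 3095 for Epcam to 9759 for Fabp2, the intestinal fatty acid binding protein gene. The brightest stomach marker was Tff1 at a mean of 110, and all 4 measured colon markers were dim. The exocrine pancreas, which also uses Pdx1, Gata4 and Gata6, was represented by 11 measured markers with means of 53.1 to 100.4, 8 of them dim. Their summed intensity ranged from 771 to 858 on control arrays and from 741 to 816 on low P/S arrays. The Brunner gland genes Tff2 and Muc6 were dim at 72.5 and 71.8.

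Segment genes placed beside the factors split by diet, while of the tested factors named above only Cdx2 passed. The lists here and below were chosen with earlier results of these data known. Their counts beside the shares of all genes are a description only. Among 12 proximal absorptive genes linked to Gata4, 4 fell, 1 rose and 7 did not pass (median difference -0.22). Over all tested genes, 7.87% were lower and 17.8% higher. Lct, the lactase gene, read 4029, 5195 and 5736 with the control feed and 1806, 2761 and 3217 with the low P/S feed, with no overlap between the diets. It fell by 0.95 on the log2 scale (SE 0.13, limma adjusted p = 9.22e-05). Such a separation was found for 10.8% of tested genes, 6.86% with the low P/S arrays higher and the rest lower, as for Lct. Npc1l1, the apical cholesterol uptake protein gene, read 2106, 2859 and 3141 against 1270, 1535 and 1729, again without overlap, and fell by 0.85 (SE 0.093). The triglyceride synthesis gene Dgat2 fell by 0.38 and Apoc3, of the lipoprotein surface, by 0.25, the latter a call that held in 6 of 12 fits without 1 array. Fabp1, the liver-type fatty acid binding protein gene, was higher by 0.21 (adjusted p = 0.0481), a call that held in 4 of 12 fits without 1 array. The 11 promoter windows found for this list came from 10 genes, so they are not all independent. Of these 11 windows, 5 held GATAA and 7 held TTTAT, against 22.6% and 37.3% of all windows. The windows with GATAA were those of Abcg5, Abcg8, Apob, Fabp1 and Lct. Of these genes only Lct passed as lower, Fabp1 passed as higher, and Abcg5, Abcg8 and Apob did not pass. The counts of windows therefore do not follow the genes that fell. Without the dim filter or with median centring no member of this list was called higher, and quantile normalization gave 8 lower and 2 higher.

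Ileal bile acid and vitamin B12 uptake genes, of which Gata4 restrains those of bile acid uptake in the proximal intestine, went both ways. Of 6 tested, 2 were higher, 2 lower and 2 did not pass, where 17.8% of all tested genes were higher and 7.87% lower. Cubn, the cobalamin receptor gene cubilin, read 3630, 4535 and 5177 with the control feed and 547, 931 and 1570 on the low P/S diet. It was 4.56-fold lower (-2.19 ± 0.19, limma adjusted p = 3.30e-06), and its partner Amn fell by 0.28. Slc51b, of the basolateral bile acid exporter, rose by 0.94 and Slc10a2, the apical bile acid uptake transporter gene, by 0.58 (SE 0.15, adjusted p = 0.0114), from a low level of 104 to 155. Fgf15 (-0.10, limma adjusted p = 0.199) and Slc51a (0.11, limma adjusted p = 0.193) did not pass. Fgf15 was at a low level of 92.2 on the control diet. Fabp6, the ileal bile acid binding protein gene, was dim on both diets at a mean of 46.5. Of 6 promoter windows of this list, 1 held GATAA and 2 held TTTAT, against 22.6% and 37.3% of all windows.

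Of 11 tested duodenal genes, 4 rose, 1 fell and 6 did not pass (median 0.16), where 17.8% of all tested genes were higher and 7.87% lower. Ada, whose duodenal enhancer is known to bind both Pdx1 and Gata4, was 2.86-fold lower (-1.52 ± 0.25, limma adjusted p = 0.000583), at 644, 1039 and 1617 against 208, 400 and 626. The groups did not overlap, as for 10.8% of all tested genes in either direction. S100g, a calcium-binding protein gene, rose by 0.46, the hormone genes Cck and Sct by 0.43 and 0.31, and the iron exporter gene Slc40a1 by 0.22 (adjusted p = 0.0314, passing in 6 of 12 fits without 1 array). Cck and Sct are also enteroendocrine markers. Of 13 promoter windows of this list, from 10 genes, 3 held GATAA and 4 held TTTAT, against 22.6% and 37.3% of all windows.

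Genes linked to Cdx1 and Cdx2 fell more often than they rose, with 6 lower, 2 higher and 5 not passing of 13 (median -0.22), where 7.87% of all tested genes were lower and 17.8% higher. Besides Lct, the sucrase-isomaltase gene Sis, whose promoter is a classical Cdx2 target, read 8070, 8949 and 10795 with the control feed and 6235, 7109 and 7788 on the low P/S diet. It fell by 0.37 on the log2 scale (SE 0.080, limma adjusted p = 0.00377). The microvillus protein gene Vil1 fell by 0.30 and the guanylin receptor gene Gucy2c by 0.23. Cldn2, a cation-permeable tight junction protein gene, read 89.9, 131 and 149 against 171, 209 and 294 and rose by 0.77 (SE 0.12, adjusted p = 0.000415). These 4 genes showed no overlap between the diets, as did 10.8% of all tested genes. Of the 10 promoter windows found for this list, 6 held TTTAT and 4 held GATAA, again against 37.3% and 22.6% of all windows. Quantile normalization gave 9 lower and 1 higher. In 15 of 22 other settings, 10 of the 12 fits without 1 array among them, the count of higher genes was 1 in place of 2.

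**Figure D5:**
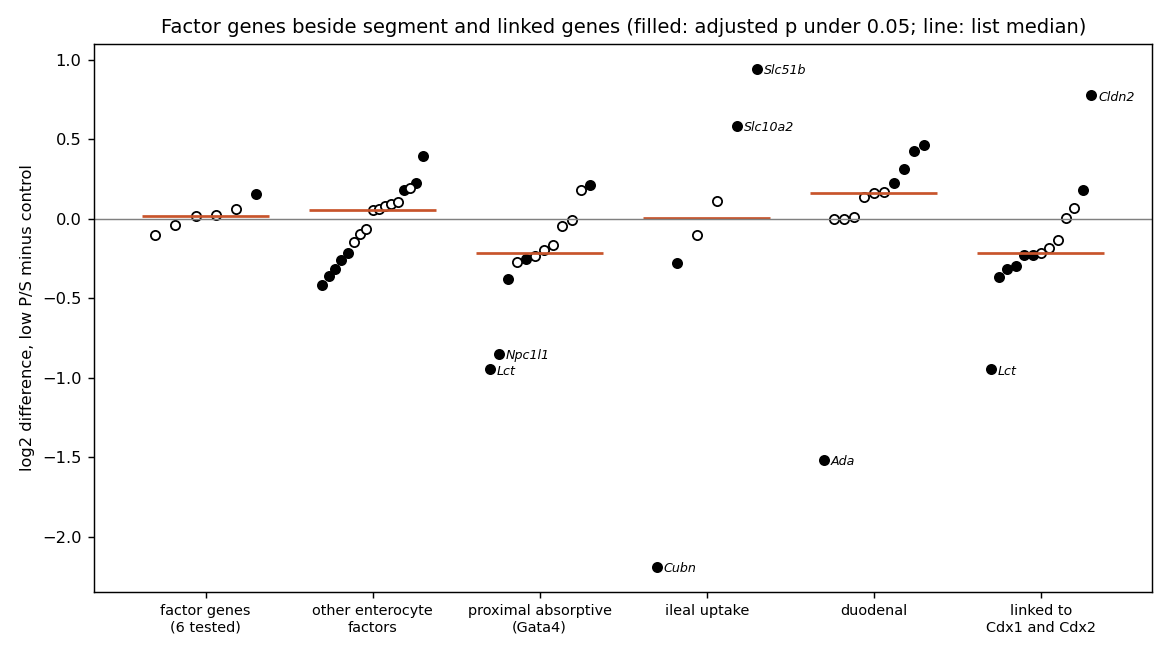
Log2 difference (low P/S minus control) of each tested gene in 6 lists, with filled points for a limma adjusted p under 0.05 and a line at the list median. The tested factor genes lie between -0.10 and 0.16, while segment and linked genes reach from -2.19 (Cubn) to 0.94 (Slc51b).

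Among 17 other enterocyte transcription factors, 5 fell, 3 rose and 9 did not pass (47.1% passing, against 25.7% of all genes). Quantile normalization gave 1 higher, and fits without 1 array gave 2 to 3. Maf, a large Maf factor of villus enterocytes, fell by 0.42 (SE 0.079, limma adjusted p = 0.00146), Bcl6, a transcriptional repressor, by 0.36 and Tcf7l2, the Wnt pathway partner of beta-catenin, by 0.32, each with no overlap between diets. Smad4, the shared mediator of BMP and TGF-beta signals, fell by 0.26, also with no overlap. Such a separation was found for 10.8% of all tested genes in either direction. Ehf, an epithelial ETS factor, rose by 0.39 (SE 0.088, adjusted p = 0.00424). Hnf4a and Hnf4g, the nuclear receptors that sustain the brush border programme, did not pass, at 0.094 and -0.15.

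Of 13 measured relatives and cofactors of the 7 genes, 6 were dim, and of the 7 tested none passed limma and 2 had an unadjusted p under 0.05. Those were Zfpm1, a GATA cofactor of the FOG family (0.15 ± 0.064, adjusted p = 0.0960), and Meis2, a homeobox partner (-0.17 ± 0.075, adjusted p = 0.111). Without control array 2, Meis2 (-0.21, adjusted p = 0.0402) and the onecut gene Onecut3 (-0.16, adjusted p = 0.0477) passed as lower. Both also passed without control arrays 1 and 2 together (-0.27, adjusted p = 0.00728, and -0.18, adjusted p = 0.0274). Gsx1, which shares the ParaHox cluster with Pdx1 and Cdx2, had a difference of -0.11 at a level of 99.8 on the control diet. In the RefSeq annotation of GRCm38.p6, 0 protein-coding genes lie between Pdx1 and Cdx2.

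Cell type markers are given beside the Cdx2 difference, and their part in it was not tested. Their counts stand beside 25.7% of all tested genes passing, 17.8% as higher and 7.87% as lower. Of 6 proliferation markers 4 rose, with summed intensities of 2045 to 3339 on control and 3152 to 4301 on low P/S arrays, led by the replication licensing gene Mcm2 (0.86 ± 0.14). Of the 8 epithelial markers 4 fell and none rose (Vil1, Sis and Krt20 among them also stand in the Cdx-linked list), with sums of 41025 to 54360 and 40779 to 44160. Epcam, a surface protein of the whole epithelium, fell by 0.17 (adjusted p = 0.0228, or 0.0533 with median centring). Cdh17, an intestinal cadherin gene linked to Cdx2, had a difference of 0.00081. The 3 tested crypt stem cell markers and the 7 smooth muscle markers had no passing member, also at an unadjusted p under 0.05. Smooth muscle sums overlapped widely, at 6860 to 10116 against 5450 to 8177. Among 12 enteroendocrine markers, a lineage that expresses Pdx1, 4 rose, Cck and Sct of the duodenal list among them, and 8 did not pass. Of 5 tested leukocyte markers 2 fell and 1 rose, and of 4 endothelial markers 1 rose. None of the 5 tested secretory lineage factor genes, Atoh1 and Spdef among them, passed in limma, also at an unadjusted p under 0.05.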

How the data were processed

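The deposited table holds the authors' array intensity values on a linear scale for 34760 probe sets and 12 arrays. Summarization, normalization and background correction are not given in the sources used here, and per the labels the sense-target protocol started from 500 ng of RNA. Array medians were 91.9 to 99.5, and the number of arrays limits precision. Probe sets naming 1 gene symbol (21640; 1321 named several and 11799 none, by GEO's platform annotation) were reduced to the brightest per gene. Log2 values were compared between diets with limma 3.58.1 (lmFit, eBayes) in R 4.3.3, the model holding diet alone, at a threshold of 0.05. Genes under the 40th percentile of mean level were left out. Exact permutation tests used NumPy 2.4.6.

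The members and lists were chosen with earlier results of these data known. Named genes were the 7 members, the 5 smallest p in each list (3 in marker lists), 7 fixed absorptive genes and the 3 most correlated genes per member. Others (Fabp6, Fgf15, Tff2, Muc6, Fabp2, Hnf4a, Hnf4g, Cdh17, Krt20) were named after their values were seen. Symbols of 2 listed genes were replaced by their mouse names, Sis and Cblif. The fit was tested on simulated data. A motif that had been listed for the promoter search is not reported here. Arrays share numbers between diets, but deviations of same-numbered arrays correlated over 0.1 for 3 of 6 numbers, so they were not treated as pairs. Alternatives were other scalings, filters, priors, weights and pseudocount, a replicate block, and leaving out arrays.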

Additional observations from a re-analysis of the deposited data

Results flagged for a closer look

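In 162 groups of 6 arrays (81 named genes on 2 diets), 10 held an array that stood apart, or 6.17%, where chance gives about 1 in 20. The rule was a gap to the nearest neighbour over Dixon's limit of 0.625 of the group's range. Gap and range were taken on the log2 scale, while the values below are linear intensities. Among the 7 factor genes this was so for Pdx1 on control array 6, at 86.2 against 75.1 to 78.6 on the others. On the same array Gsx1, which like Pdx1 was at a low level, read 113 against at most 100.2 on the others. Whether dim probe sets in general were shifted on that array was not tested. On low P/S array 4, the goblet and secretory lineage factor gene Atoh1 read 482 against 290 to 333. Control array 2 was low for Npc1l1 (2106 against 2721 to 3141) and for Clpp (222 against 246 to 259). The smooth muscle genes stood apart on control array 4 for Myh11 (2516 against 1558 to 1849) and on low P/S array 6 for Actg2 (663 against 892 to 1052) and Acta2 (2067 against 2981 to 3278). The pancreatic gene Ctrb1 read 115 on low P/S array 3 against 78.4 to 86.0, and the T cell gene Cd8a 146 on low P/S array 5 against 185 to 198.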

How the results depend on the processing

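Of 152 refits of the members' differences, 144 kept both direction and side of the threshold. Quantile normalization gave 1596 genes as lower in place of 942, 0 members as higher in place of 1, a Cdx2 difference of 0.097, and reversed differences of Gata4 (-0.027), Onecut2 (-0.037) and Smoc2 (-0.046). Without control arrays 1 and 2 together, 0 members passed, Cdx2 was 0.13, Gata4 -0.0080, Smoc2 -0.019, Olfm4 0.10 and Gata4 over Onecut2 -0.0090. Median centring turned Spdef (0.00073) and Olfm4 (0.0031), and array weights turned Smoc2 (-0.00094). The causes were not tested. Without 1 array at a time, the number of members higher was 0 to 1 (0 without low P/S array 5), the Cdx2 difference 0.14 to 0.18, Onecut2 -0.0079 to 0.041, Spdef -0.043 to 0.029, Olfm4 -0.087 to 0.066, Creb3l1 -0.039 to 0.010, Acta2 -0.15 to 0.0065, Gata4 over Onecut2 -0.016 to 0.037 and Gata5 over Gata6 -0.031 to 0.096. All genes passing numbered 2410 to 3321 in those fits.

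Of the 15 pairs, 4 passed with quantile normalization and 2 to 3 without 1 array. With the replicate number as a replicate block, Cdx2 kept its call (0.16, adjusted p = 0.0270), and of 63 named genes 2 changed side, Fabp1 (adjusted p = 0.0529) and Pecam1 (adjusted p = 0.0154). A sign-flip test of same-numbered arrays as a replicate block gave 0 passing pairs. For genes that were no member, 1128 of 1213 refits kept direction and side. Signals near the floor limit what can be read for Pdx1.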
